A study of Mus musculus with 9 samples.

Results

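The genes described are 10 mouse Jumonji genes, Kdm2a, Kdm2b, Kdm3a, Kdm3b, Kdm4a, Kdm4b, Kdm4c, Kdm5b, Kdm6b and Jmjd6, chosen by symbol from the 46517 genes quantified. RNA sequencing covered 9 cultures of duodenal organoids, 3-dimensional cultures grown from intestinal crypts of wild-type C57BL/6J mice in Matrigel with L-WRN conditioned medium at 5% oxygen. Of these cultures, 3 received Ad-GFP, an adenovirus that carries green fluorescent protein only, 3 received Ad-hHIF2 and 3 received Ad-hHIF1. The HIF viruses carry human HIF2 or HIF1 with substituted prolines, so that the proteins escape degradation in the presence of oxygen, and all 9 cultures therefore also share exposure to virus. The dose was 50 viral particles per cell, and the organoids were harvested for RNA after 72 hours. The overexpression was transient and was not limited to a cell type, and the libraries of each group carry the replicate numbers 1, 3 and 4.

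Jumonji enzymes carry a JmjC domain that uses iron, 2-oxoglutarate and molecular oxygen to hydroxylate methyl groups on lysine, after which the methyl group is lost. They share these needs with the prolyl hydroxylases that mark HIF for degradation, and some of them, with KDM3A and KDM4B the best known, are transcribed more strongly in hypoxic cells. Different members act on different marks of histone H3. Kdm2a and Kdm2b act on H3K36, Kdm3a and Kdm3b on H3K9, Kdm4a, Kdm4b and Kdm4c on H3K9 and H3K36, Kdm5b on H3K4 and Kdm6b on H3K27. Jmjd6 is mainly known as a lysyl hydroxylase of splicing factors.

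The labels were checked with the mouse HIF genes, to which reads of the human transgenes may be assigned. Epas1, the gene of HIF2α, measured 672.1 ± 78.1 in Ad-hHIF2 organoids and 1.77 ± 0.382 in Ad-GFP organoids, in CPM (counts scaled to a common library size after TMM normalization; mean ± SD of 3 libraries). Hif1a measured 309.0 ± 9.96 CPM after Ad-hHIF1 and 219.7 ± 28.0 CPM after Ad-GFP (mean ± SD of 3 libraries). Libraries held 21722618 to 51119041 expected counts. The library Ad-hHIF2 replicate 1 stood apart with a TMM factor of 1.31, against 0.907 to 1.03 in the others, and in Ad-hHIF1 replicate 3 the genes Gm10800 and Gm26870 took 16% of all counts, against 0.433% to 4.28% elsewhere. The summed level of 8 epithelial markers was 3220 to 3740 CPM over the 9 libraries, most of it keratins, with Krt8 at 1020 to 1360 CPM, while Vil1 was at 3.27 to 4.94 CPM, Epcam at 1.42 to 3.80 CPM and Cdx1 at 0 in every library. Against Ad-GFP organoids, Cdh1 was higher with Ad-hHIF2 by 0.53 and Epcam lower, at -0.81, on the log2 scale (adjusted p = 0.00313 and 0.0472 by edgeR, that of Epcam 0.0601 by DESeq2). The summed level of 5 crypt stem cell markers was 0.36 to 2.01 CPM and none of them averaged above 1 CPM over the 9 libraries. For 7 mesenchymal markers the sum was 9.85 to 19.5 CPM, for 5 immune markers 0.255 to 1.85 CPM, for 4 endothelial markers 0.356 to 1.01 CPM, for 6 enterocyte markers 0.495 to 3.55 CPM and for 6 secretory markers 3 to 9.3 CPM. The enterocyte sum was 2.93 to 3.55 CPM in Ad-hHIF2 organoids against 0.683 to 0.887 CPM in Ad-GFP organoids, a difference carried by Apoa4 (2.22 to 2.81 CPM against 0 to 0.0277 CPM), while Fabp2 was at 0.0323 to 0.275 CPM against 0.35 to 0.637 CPM and Fabp1 and Sis were at or near 0. The secretory sum was 3 to 3.46 CPM against 6.09 to 9.3 CPM, carried by Muc2 (1.49 to 2.01 CPM against 4.65 to 7.5 CPM), with Dclk1 at 1.35 to 1.96 CPM against 1.11 to 1.8 CPM. The immune sum was also lower in Ad-hHIF2 organoids, at 0.255 to 0.356 CPM against 0.874 to 1.85 CPM, with Ptprc at 0.0686 CPM or less against 0.492 CPM or more. Their part in the results below was not tested. In these bulk samples fewer cells of a type and less RNA per cell cannot be told apart.

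All 10 genes were expressed, with 302.72 to 5391.55 expected counts per library, and all 10 passed the filter on low counts in each comparison. Levels between genes were compared as CPM per kilobase of effective transcript length. On that scale Jmjd6 was the highest, at 74.0 on average over the 9 libraries and 51.5 to 97.9 in single libraries, which placed it above 95.2% of the expressed genes. The H3K36 demethylase Kdm2a followed at 23.8 CPM per kilobase, Kdm4b at 17.9, the H3K4 demethylase Kdm5b at 17.0, Kdm3a at 14.6 and Kdm4a at 13.5. Kdm4c at 7.64, the H3K27 demethylase Kdm6b at 6.95, Kdm3b at 5.52 and Kdm2b at 3.92 formed the lower part, and Kdm2b lay above 49.6% of the expressed genes. Jmjd6 lay above Kdm2a and Kdm4a above Kdm4c with no overlap between their 9 libraries, whereas the other neighbours in this order overlapped. Within a library, Kdm2a exceeded Kdm4b and Kdm3b exceeded Kdm2b in 9 of 9 libraries.

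**Figure D1:**
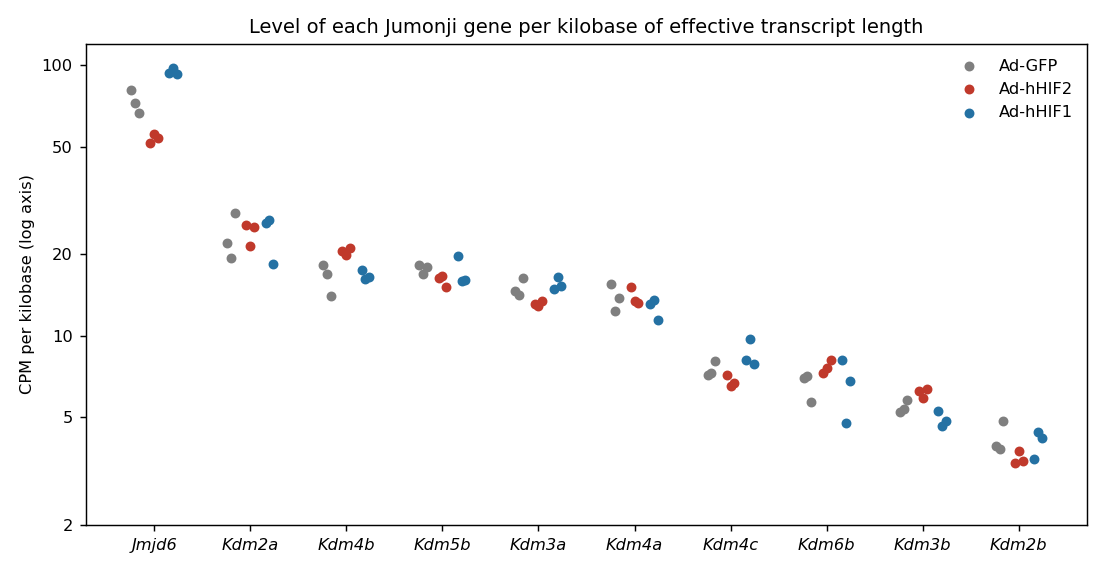
Level of each gene in CPM per kilobase of effective transcript length (log axis), with 1 point per library colored by group. Jmjd6 lies at 51.5 to 97.9 and clear of Kdm2a, the next gene, and the 10 genes span a range from 3.92 to 74.0 in their means.

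By the GENCODE M21 annotation of GRCm38, Jmjd6 lies at chr11:116837432-116843449 and Kdm3a at chr6:71588972-71632990, both on the minus strand. Kdm4a (chr4:118136957-118180043, minus strand) and Kdm4c (chr4:74242497-74405860, plus strand) share a chromosome, Kdm4b lies at chr17:56326062-56402870 (plus strand) and Kdm5b at chr1:134560171-134635285 (plus strand). Kdm2a lies at chr19:4314419-4398285, Kdm2b at chr5:122870665-122989823 and Kdm6b at chr11:69398508-69413675, all on the minus strand. The start of Jmjd6 overlaps the start of Mettl23, which is transcribed the other way, by 172 bases, the end of Kdm2b overlaps Rnf34 by 627 bases, and the antisense gene Kdm6bos lies within Kdm6b. Whether the libraries kept the strand is not given in the sources used here, so reads in these overlaps cannot be told apart. Mettl23 received 7.02 to 13.6 CPM in the 9 libraries, Rnf34 10.5 to 19.6 CPM and Kdm6bos 0 to 1.35 CPM, and none of the 3 was called in any comparison by edgeR. The log2 fold change of Mettl23 in Ad-hHIF2 against Ad-GFP organoids was -0.44 (adjusted p = 0.136 by edgeR), beside -0.41 for Jmjd6. In Ad-hHIF1 against Ad-GFP organoids it was -0.20, beside 0.29 for Jmjd6. The part of shared reads in these values was not tested.

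HIF proteins bind the core motif ACGTG or GCGTG in DNA, and both were searched on both strands in the 250 bases before each RefSeq transcription start (GRCm38.p6), because the comparisons ask whether these genes respond to HIF. Windows were matched for 6 of the 10 genes, Jmjd6, Kdm2b, Kdm3a, Kdm4a, Kdm4c and Kdm5b, with 12 windows in all, and Kdm2a, Kdm3b, Kdm4b and Kdm6b were not among them. ACGTG occurred in 3 of the 12 windows, against 16.6% of all 32851 windows of this length, and GCGTG in 8 of the 12, against 28.2%. One pair of the 4 Kdm2b windows and one pair of the 3 Kdm3a windows overlap, so not all windows are separate observations, and a match is a run of letters and not a measured binding site. The sequences printed are the sites of Jmjd6, the member that moved most in Ad-hHIF2 against Ad-GFP organoids after TMM normalization, and of Kdm3a. Also printed are the parts outside annotated exons of the window before an internal start of Kdm4c and of the window of Kdm5b. Kdm5b moved least in that comparison after TMM normalization, whereas on log2(TPM + 0.1) Jmjd6 moved least, at 0.0066. Capitals mark matches on either strand. The Jmjd6 window lies in an annotated Mettl23 exon, and the Kdm3a site lies 10 bases before a start, within an exon of another Kdm3a transcript. The Kdm4c stretch holds 2 copies of CACGTG, in which ACGTG reads on both strands.
Jmjd6 site, chr11:116843660-116843689, minus strand: aggccgggctcgCACGTaggggagtccagg
Jmjd6 site next to the start, chr11:116843450-116843479, minus strand: ccaacatggcgcccaattgGCGTGcatgaa
Kdm3a site, chr6:71632927-71632956, minus strand: ccgggaggctgtGCGTGtcttgtgagagag
Kdm4c stretch, chr4:74251715-74251878, plus strand: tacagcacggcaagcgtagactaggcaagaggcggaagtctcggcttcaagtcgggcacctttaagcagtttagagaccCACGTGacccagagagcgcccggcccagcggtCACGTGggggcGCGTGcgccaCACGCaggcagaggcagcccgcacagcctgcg
Kdm5b stretch, chr1:134559928-134560170, plus strand: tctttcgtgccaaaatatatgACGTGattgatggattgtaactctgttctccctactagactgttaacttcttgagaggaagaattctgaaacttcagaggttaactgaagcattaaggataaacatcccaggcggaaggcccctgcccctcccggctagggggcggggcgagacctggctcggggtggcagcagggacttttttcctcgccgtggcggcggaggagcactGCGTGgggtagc

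The comparison of Ad-hHIF2 with Ad-GFP organoids asked whether nondegradable HIF2 changes the transcripts of these oxygen-dependent enzymes. Jmjd6 fell by 0.41 on the log2 scale, a change of -24.6%, and no other member passed the test. Calls rest on edgeR's quasi-likelihood test with Benjamini-Hochberg adjustment over all 14987 genes tested, at an adjusted p below 0.05. Of the 10 genes, 0 were called higher, where 15.9% of all genes were, and 1 was called lower, where 13.6% were. DESeq2 gave the same counts, and 2 members were higher at an unadjusted p below 0.05. None of the 10 passed both that threshold and a 2-fold change, against 6.73% of all genes. The median absolute log2 fold change of the 10 genes was 0.155, against 0.32 over all genes. Without adjustment 4 of the 10 had a p below 0.05, close to the 41.2% of all genes, and in 5 of the 10 the groups did not overlap, against 45.8%. The 95% intervals of all 10 log2 fold changes lay between -0.613 and 0.438, and so within 2-fold.

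**Figure D2:**
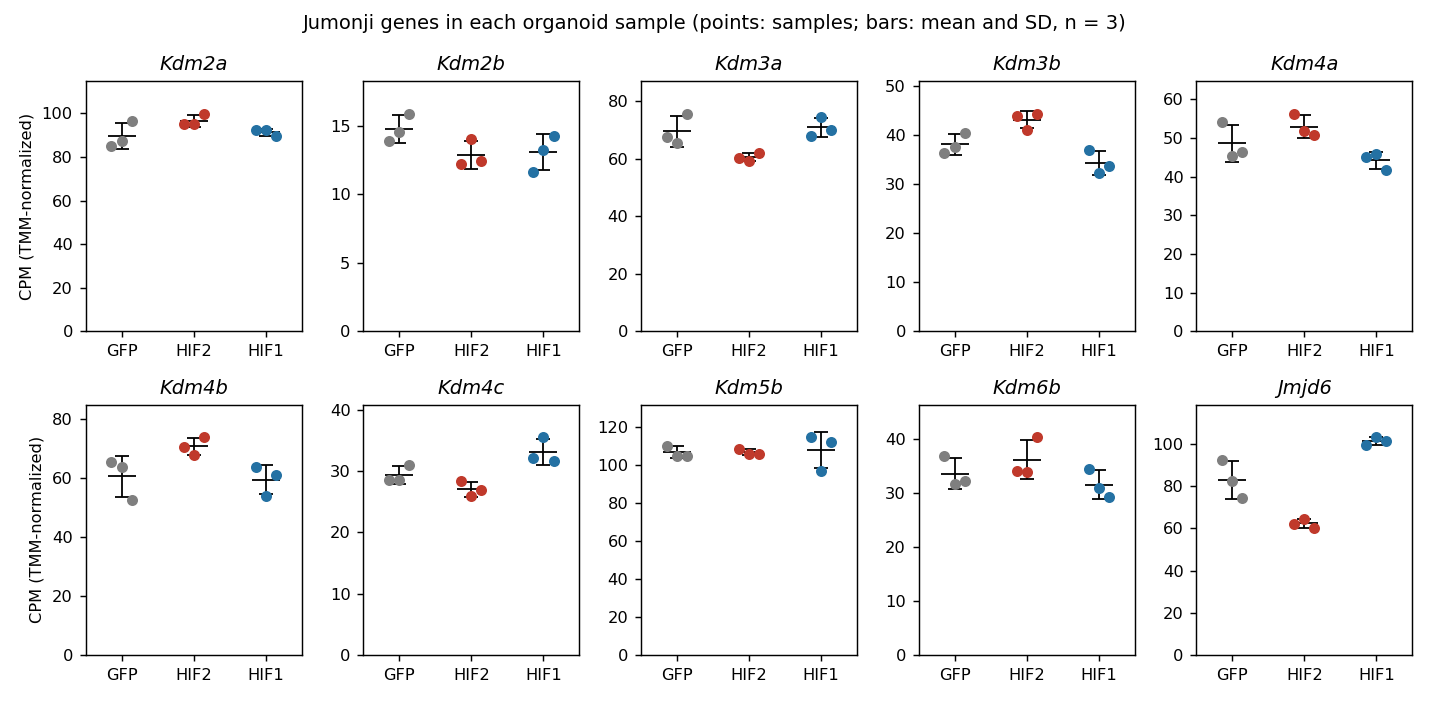
Normalized CPM of the 10 genes in each of the 9 libraries, grouped by virus along the horizontal axis of each panel, with points for libraries and bars for the mean and SD (n = 3). Jmjd6 is at 60.4 to 64.6 CPM with Ad-hHIF2, 74.1 to 92.3 with Ad-GFP and 99.3 to 103.1 with Ad-hHIF1 after TMM normalization, while on log2(TPM + 0.1) its Ad-hHIF2 and Ad-GFP means differ by 0.0066.

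Jmjd6 was at 92.3, 82.3 and 74.1 CPM in Ad-GFP replicates 1, 3 and 4, at 62.0, 64.6 and 60.4 CPM in the Ad-hHIF2 replicates and at 99.3, 103.1 and 101.5 CPM in the Ad-hHIF1 replicates. The 3 groups did not overlap, with Ad-hHIF2 lowest and Ad-hHIF1 highest. The log2 fold change of Jmjd6 in Ad-hHIF2 against Ad-GFP organoids was -0.41 (standard error 0.0903, 95% interval -0.613 to -0.203, adjusted p = 0.0102 by edgeR). This call was kept without any 1 of the 6 libraries, where the log2 fold change was -0.47 to -0.32 and the adjusted p 0.00433 to 0.0495 by edgeR. Without Ad-hHIF2 replicate 1, the library with the high TMM factor, it was -0.38 (adjusted p = 0.0421 by edgeR). It depended on scaling between libraries. With library totals alone the value was -0.15 (adjusted p = 0.586), while the median of all genes moved to 0.244. On log2(TPM + 0.1) it was 0.0066 in limma with a median of all genes of 0.302, and with the sample medians set equal it was -0.40 (adjusted p = 0.0372 by limma).

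Among the H3K9 demethylases, Kdm3a was at 67.4, 65.5 and 75.7 CPM in the Ad-GFP replicates and at 60.3, 59.2 and 62.0 CPM in the Ad-hHIF2 replicates. All 3 Ad-hHIF2 libraries were therefore below all Ad-GFP libraries, but the log2 fold change of -0.20 (95% interval -0.375 to -0.0153) had an adjusted p of 0.0964 by edgeR. Without Ad-GFP replicate 4 the value was -0.12 (adjusted p = 0.227 by edgeR), while library totals alone gave 0.062 and log2(TPM + 0.1) gave 0.25. Kdm3b (chr18:34777047-34838660, plus strand), which acts on the same mark, was at 36.3, 37.5 and 40.4 CPM with Ad-GFP and at 43.8, 41.1 and 44.3 CPM with Ad-hHIF2. The groups did not overlap, with a log2 fold change of 0.18 (95% interval 0.0192 to 0.345, adjusted p = 0.0889 by edgeR). Without Ad-GFP replicate 4 it was 0.23 and passed the test (adjusted p = 0.0374 by edgeR).

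The demethylases of H3K9 and H3K36 gave values on both sides of 0. Kdm4b was at 65.4, 63.6 and 52.5 CPM with Ad-GFP and at 70.4, 67.6 and 73.7 CPM with Ad-hHIF2, again without overlap. Its log2 fold change was 0.23 (95% interval 0.0148 to 0.438, adjusted p = 0.101 by edgeR), and without Ad-GFP replicate 4 it was 0.14 (adjusted p = 0.192 by edgeR). With library totals alone it was 0.48 (adjusted p = 0.0413 by edgeR). Kdm4c was at 28.5, 28.6 and 31.0 CPM with Ad-GFP and at 28.3, 25.8 and 26.8 CPM with Ad-hHIF2, and its log2 fold change was -0.12 (adjusted p = 0.259 by edgeR), turning to 0.15 with library totals alone. Kdm4a was at 45.3 to 54.0 CPM with Ad-GFP and 50.7 to 56.2 CPM with Ad-hHIF2, which overlap.

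The remaining members overlapped between the groups and did not pass the test. Kdm5b, which removes methyl groups from H3K4, was at 104.9 to 110.4 CPM with Ad-GFP and 105.8 to 108.8 CPM with Ad-hHIF2, and its log2 fold change was 0.0047 (95% interval -0.148 to 0.158). Kdm2a was at 85.2 to 96.6 CPM with Ad-GFP and 94.98 to 99.87 CPM with Ad-hHIF2 (log2 fold change 0.11, 95% interval -0.0638 to 0.290). Kdm2b, which brings a variant Polycomb complex to CpG islands, was at 13.9 to 15.9 and 12.2 to 14.1 CPM (log2 fold change -0.19, 95% interval -0.418 to 0.0408, turning to 0.058 with library totals alone). Kdm6b was at 31.7 to 36.9 and 34.0 to 40.4 CPM (log2 fold change 0.11, 95% interval -0.111 to 0.328).

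The comparison of Ad-hHIF1 with the same Ad-GFP libraries asked the same of HIF1. No member passed the test, and none of the 15233 genes tested did, which is 0% of genes higher, 0% lower and 0% past both thresholds by edgeR. DESeq2 gave an adjusted p for 3211 genes, 9 of the 10 members among them, and called 138 genes and 0 of those 9 members. An unadjusted p below 0.05 was found for 1 of the 10 members, Jmjd6, and for 1308 genes or 8.59% of all. The groups did not overlap for 2 members, Jmjd6 and Kdm4c, against 17.3% of all genes. Jmjd6 was 22.2% higher, with a log2 fold change of 0.29 (95% interval 0.0779 to 0.500, adjusted p = 0.504 by edgeR). Kdm4c was at 32.2, 35.5 and 31.6 CPM in the Ad-hHIF1 replicates, with a log2 fold change of 0.17 (adjusted p = 0.591 by edgeR). Kdm3a was at 68.0, 74.6 and 70.0 CPM, within the spread of the Ad-GFP libraries (log2 fold change 0.028, 95% interval -0.162 to 0.218). The 95% intervals of the 10 log2 fold changes ran from -0.437 to 0.500, and the median absolute value was 0.113, against 0.166 over all genes.

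The direct comparison of Ad-hHIF2 with Ad-hHIF1 organoids, in a fit of all 9 libraries, asked where the HIFs differ. Jmjd6, Kdm4c and Kdm3a were lower and Kdm3b and Kdm4a higher with Ad-hHIF2 after TMM normalization, while Kdm3a was at 0.027 on log2(TPM + 0.1), where all genes had a median of 0.172. That was 2 of 10 members higher, against 13.7% of the 15556 genes tested, and 3 of 10 lower, against 12% of them, by edgeR's quasi-likelihood test. No member passed both thresholds, as 6.11% of all genes did. An unadjusted p below 0.05 was found for 6 members and 37.4% of all genes, and the groups did not overlap for 7 members and 41.8% of all genes. The 2 comparisons with Ad-GFP share their control libraries, and in this one the Ad-GFP libraries enter the filter, the scaling and the estimate of spread but not the means compared.

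After TMM normalization Jmjd6 gave the largest difference of the 10 genes, with means of 62.3 ± 2.14 CPM in Ad-hHIF2 and 101.3 ± 1.91 CPM in Ad-hHIF1 organoids (SD, n = 3 each). The change was -38.5%, with a log2 fold change of -0.70 (95% interval -0.887 to -0.515, adjusted p = 0.000203 by edgeR). Of 20 alternatives, 18 kept this call and the other 2, both on TPM without matched medians, gave -0.54 and -0.50 (adjusted p = 0.264 and 0.288 by limma). Without Ad-hHIF1 replicate 3 it was -0.70 (adjusted p = 0.000676 by edgeR) and without Ad-hHIF2 replicate 1 it was -0.69 (adjusted p = 0.00187 by edgeR). Kdm3b was at 36.9, 32.1 and 33.7 CPM with Ad-hHIF1, below all Ad-hHIF2 libraries, and was 25.6% higher with Ad-hHIF2 (log2 fold change 0.33, 95% interval 0.165 to 0.494, adjusted p = 0.00893 by edgeR). This call was kept without any 1 library and lost in the 3 fits on TPM.

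Kdm4c changed by -18.4% from Ad-hHIF1 to Ad-hHIF2 (log2 fold change -0.29, 95% interval -0.457 to -0.131, adjusted p = 0.0149 by edgeR). It lost its call in 7 of 20 alternatives, namely without Ad-hHIF2 replicate 3 or 4 (adjusted p = 0.0522 and 0.0538 by edgeR), without a filter, with library totals alone (-0.10) and in the 3 fits on TPM, where it was as small as -0.018 on log2(TPM + 1). Kdm3a changed by -14.6% (log2 fold change -0.23, 95% interval -0.393 to -0.0628, adjusted p = 0.0465 by edgeR). Kdm4a, at 45.0, 45.9 and 41.7 CPM with Ad-hHIF1, was 19.8% higher with Ad-hHIF2 (log2 fold change 0.26, 95% interval 0.0736 to 0.448, adjusted p = 0.045 by edgeR). The calls of Kdm3a and Kdm4a each held in 7 of 20 alternatives. Kdm3a lost its call without any 1 of the 6 HIF libraries or Ad-GFP replicate 1 (adjusted p = 0.0521 to 0.13 by edgeR), and Kdm4a without any 1 of the 6 HIF libraries or Ad-GFP replicate 3 (adjusted p = 0.0553 to 0.145 by edgeR). With all libraries kept, both were lost with library totals alone and on TPM, Kdm3a also without a filter and with the replicate block, and Kdm4a also with median-ratio factors and with at least 10 counts in every sample. Kdm4b (log2 fold change 0.25, adjusted p = 0.0852 by edgeR) and Kdm2a (0.081, adjusted p = 0.44 by edgeR) had all Ad-hHIF2 libraries above all Ad-hHIF1 libraries without passing the test. Kdm4b passed the threshold in 1 of 20 alternatives. Kdm6b, Kdm2b and Kdm5b overlapped between the groups, with log2 fold changes of 0.19, -0.020 and -0.016, of which those of Kdm2b and Kdm5b turned sign with library totals alone (0.15 and 0.16).

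**Figure D3:**
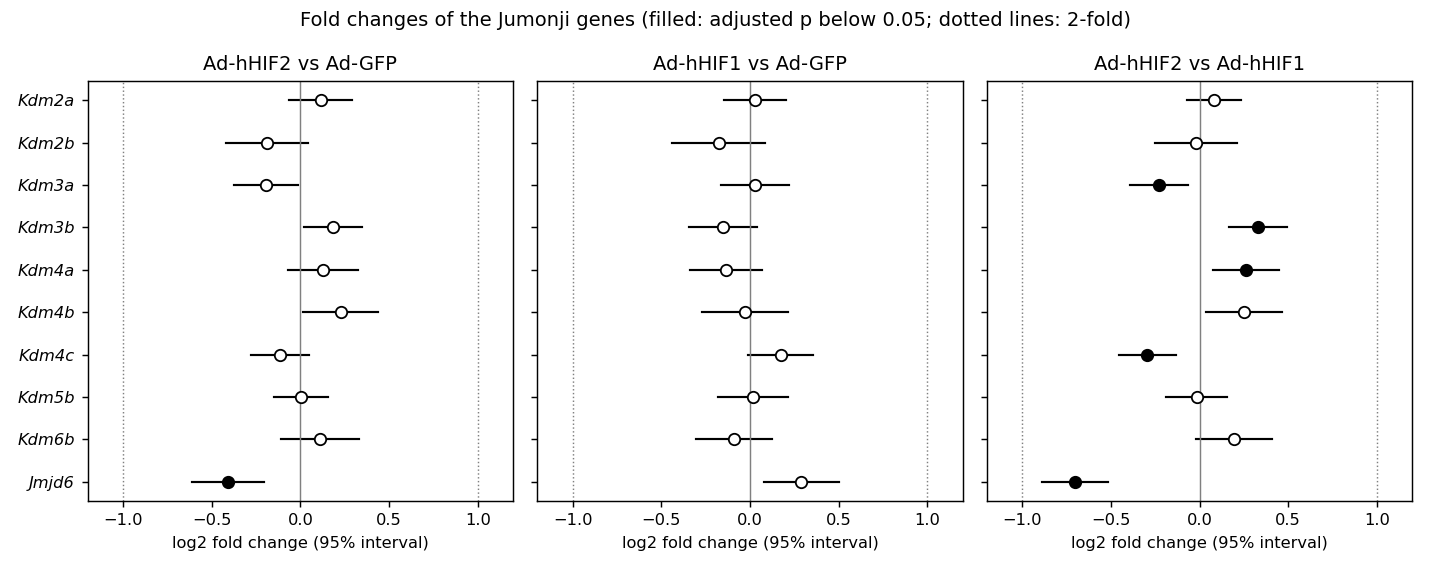
Log2 fold change of each gene in the 3 comparisons after TMM normalization, with 95% intervals from edgeR's quasi-likelihood fit, filled where the adjusted p was below 0.05, and with dotted lines at 2-fold. All intervals lie inside the dotted lines and Jmjd6, at -0.41, 0.29 and -0.70, is farthest from 0, although with unmatched TPM its value in Ad-hHIF2 against Ad-GFP is 0.0066 and those of Kdm2b, Kdm3a and Kdm4c turn positive.

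The genes whose pattern over the 9 libraries was closest to that of Jmjd6 were sought among 7238 other genes with a mean of at least 10 CPM, by the root mean square difference of centered log2 CPM. They were Bop1, a ribosome assembly factor, at 0.0589, Mboat1, a lysophospholipid acyltransferase, at 0.0643, and Eif1a, a translation initiation factor, at 0.0753. The spread of Jmjd6 around its own mean on the same scale was 0.298. Bop1 was at 13.9 to 19.9 CPM in Ad-GFP, 12.4 to 13.8 in Ad-hHIF2 and 19.8 to 21.5 in Ad-hHIF1 organoids. Mboat1 was at 27.7 to 30.4, 21.0 to 22.4 and 32.4 to 36.4 CPM in the same order of groups. All 3 thus had their lowest values in Ad-hHIF2 organoids, as the choice by likeness requires.

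RSEM also gives each gene a transcript length weighted by the abundance of its isoforms, which moves when isoform use moves. In Ad-hHIF2 against Ad-GFP organoids this length did not overlap between groups for 3 members, Kdm4a, Kdm4b and Kdm5b, against 12.9% of 10039 tested genes with several transcripts. Kdm4a measured 3606, 3797 and 3502 bases in the Ad-GFP replicates and 3841, 3973 and 3988 bases in the Ad-hHIF2 replicates, and was thus 8.22% longer on average. Kdm5b measured 6196, 6349 and 5974 bases against 6794, 6489 and 7141 bases, a mean 10.3% longer, with 15.1 to 16.7 CPM per kilobase in Ad-hHIF2 and 16.9 to 18.2 in Ad-GFP organoids. Kdm4b measured 3708, 3888 and 3858 bases against 3559, 3545 and 3619 bases, a mean change of -6.38%.

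In Ad-hHIF1 against Ad-GFP organoids the length did not overlap for Kdm3a (a change of -0.973%) and Jmjd6 (-3.93%), against 8.89% of genes. Jmjd6 measured 1203, 1220 and 1227 bases in the Ad-hHIF1 replicates and 1250 to 1276 bases in the Ad-GFP replicates. Between the HIFs it did not overlap for 4 members, Kdm2b, Kdm3a, Kdm4a and Jmjd6, against 10.6% of genes, and Jmjd6 was 6.8% longer with Ad-hHIF2. Kdm6b and Kdm2a varied most within a group, with 4387 to 6654 bases for Kdm6b in Ad-hHIF1 organoids. Kdm3b has a single transcript in the files and measured 7112 bases throughout. These lengths are given without a test.

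**Figure D4:**
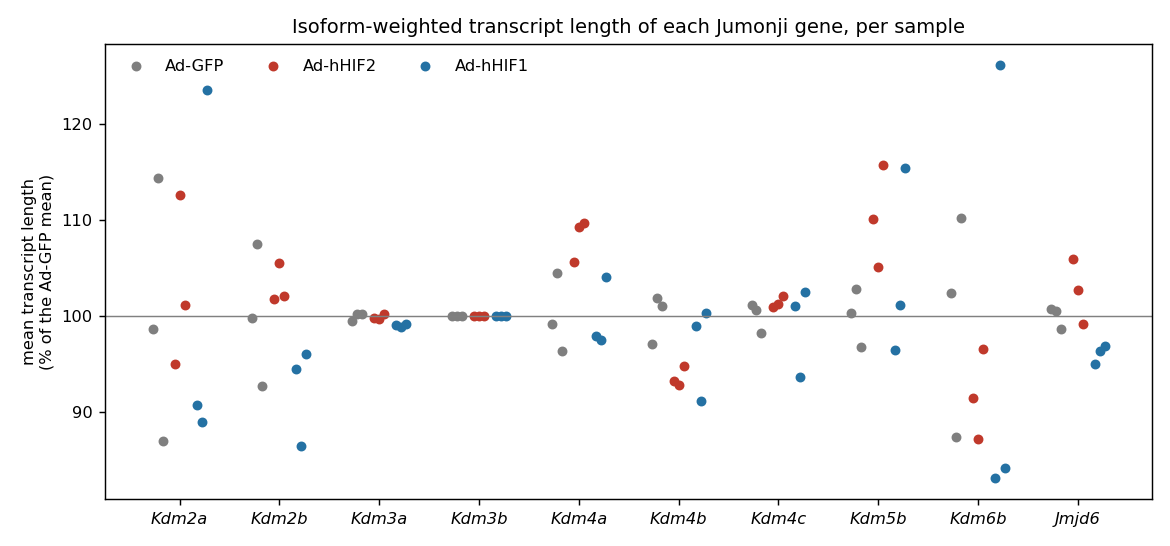
Isoform-weighted transcript length of each gene per library, as a percentage of the Ad-GFP mean of that gene, with points colored by group. Kdm4a and Kdm5b lie higher and Kdm4b lower in the Ad-hHIF2 libraries than in any Ad-GFP library. Kdm2a scatters widely in all groups, and Kdm6b in the Ad-GFP and Ad-hHIF1 groups.

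Other enzymes of the same chemistry gave more calls in Ad-hHIF2 organoids, without a test of the difference from the 10 genes. Of 21 other JmjC genes 20 were tested, and 6 were higher and 2 lower than with Ad-GFP by edgeR, against 15.9% and 13.6% of all genes, with a median log2 fold change of 0.0564 over the 20 and -0.0116 over all genes. DESeq2 called 7 of them, against 4240 of 18195 over all genes. The 5 with the smallest p were Hif1an, Phf2, Kdm5c, Hr and Phf8. Hif1an, the asparaginyl hydroxylase that limits HIF activity, was at 18.2 to 18.9 CPM with Ad-GFP and 25.6 to 28.5 CPM with Ad-hHIF2, with a log2 fold change of 0.55 (adjusted p = 0.000825 by edgeR). Phf2, an H3K9 demethylase, rose by 0.51 (adjusted p = 0.00249 by edgeR), from 15.6 to 17.1 CPM up to 21.9 to 25.3 CPM. Kdm5c, which acts on H3K4 as Kdm5b does, rose by 0.42 (adjusted p = 0.00762 by edgeR), and Phf8 by 0.44 (adjusted p = 0.0125 by edgeR). Hr, an H3K9 demethylase of skin and hair, was near the floor of detection at 1.09 to 1.8 CPM with Ad-GFP and 0.392 to 0.517 CPM with Ad-hHIF2. Hif1an, Phf2 and Kdm5c lost their calls only in fits on TPM, and Phf8 and Hr also without 1 library, Ad-GFP replicate 3 and Ad-hHIF2 replicate 3 respectively. Among the other called genes Kdm6a lost its call in 7 and Riox2 in 9 of 17 alternatives. In Ad-hHIF1 organoids 0 of the 20 were called by edgeR, as were 0% of all genes. Hr, at -1.38, was the 1 gene at an unadjusted p below 0.05, against 8.59% of all genes. Of the 5 for which DESeq2 gave an adjusted p, 0 were called by it, against 138 of 3211 over all genes. Hif1an and Phf2 were higher with Ad-hHIF2 than with Ad-hHIF1 as well, by 0.36 and 0.52 (adjusted p = 0.00479 and 0.00103 by edgeR).

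**Figure D5:**
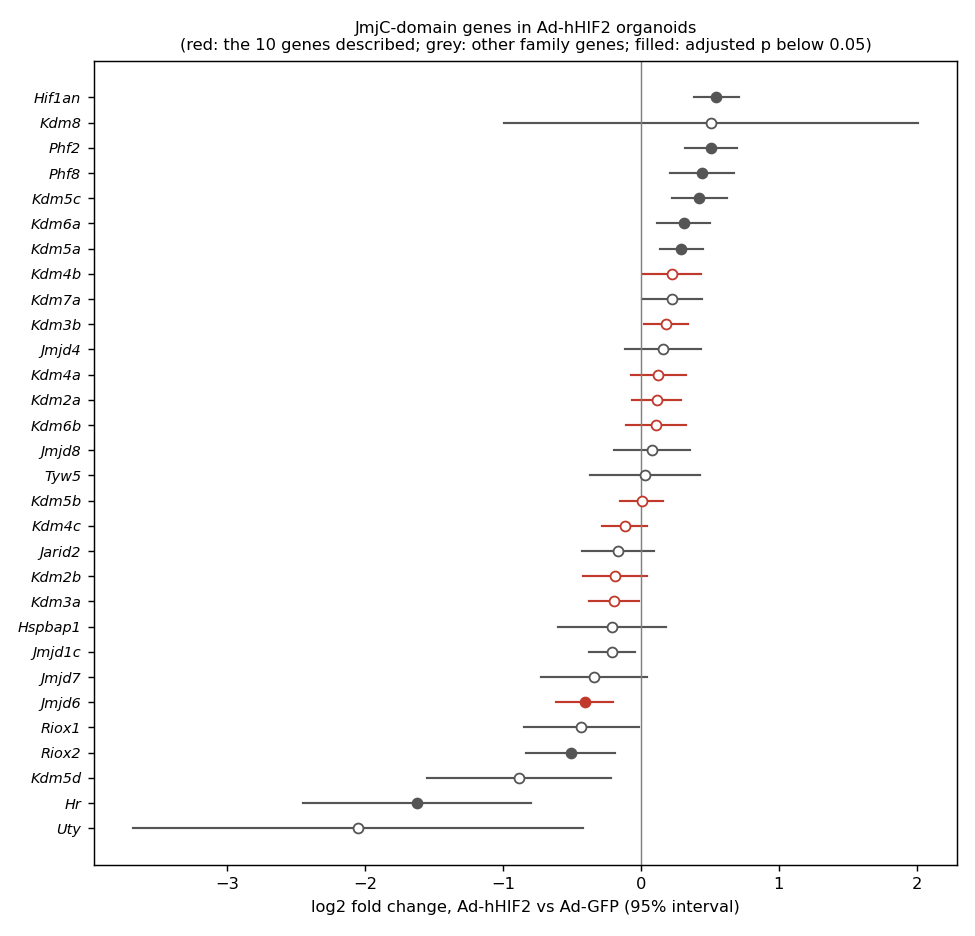
Log2 fold change in Ad-hHIF2 against Ad-GFP organoids after TMM normalization, with 95% intervals, for the 10 genes described (red) and 20 other JmjC genes (grey), filled where the adjusted p was below 0.05. Jmjd6 is the 1 filled red point, although at 0.0066 with unmatched TPM, where Kdm2b, Kdm3a and Kdm4c also turn sign, while 8 of the 20 others are filled, among which Riox2 turns sign on log2(TPM + 1).

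Enzymes that work on the same marks were counted from lists. Among the 3 TET genes, DNA dioxygenases with the same cofactors, Tet2 and Tet1 were called lower with Ad-hHIF2 and Tet3 higher. Of all genes 13.6% were called lower and 15.9% higher. Tet1 was under 1 CPM in every library and lost its call in 8 of 17 alternatives, 4 of them with 1 library left out, and Tet3 lost its call in 6, whereas Tet2 lost it in 2, both on TPM. Tet2 was at 110 to 124 CPM with Ad-GFP, 62.8 to 70.5 CPM with Ad-hHIF2 and 90.8 to 94.5 CPM with Ad-hHIF1, without overlap. Its log2 fold change was -0.80 (adjusted p = 0.000203 by edgeR) in Ad-hHIF2 and -0.34 (adjusted p = 0.486 by edgeR, 0.00483 by DESeq2) in Ad-hHIF1 against Ad-GFP organoids. Of 5 H3K36 methyltransferases, 3 were higher with Ad-hHIF2 than with Ad-GFP, Nsd1 by 0.27, Nsd3 by 0.32 and Setd2 by 0.31 on the log2 scale (adjusted p = 0.0181, 0.0191 and 0.0218 by edgeR), where 15.9% of all genes were higher. Each of these calls was lost on TPM and without single libraries, 3 for Nsd1, 3 for Nsd3 and 4 for Setd2. Of 6 H3K9 methyltransferases only Suv39h1 was called, at -0.38 (adjusted p = 0.0188 by edgeR), where 13.6% of all genes were lower. Its sign turned on unmatched TPM, and the call was also lost by DESeq2, with library totals alone and without any 1 of 4 libraries. Of 4 genes of the H3K27 methyltransferase complex only Ezh1 was called, at 0.31 (adjusted p = 0.0321 by edgeR), where 15.9% of all genes were higher. Ezh1 lost the call on TPM and without any 1 of 4 libraries. Of 6 H3K4 methyltransferases, 0 were called against Ad-GFP by edgeR and 1 by DESeq2, with 2 at an unadjusted p below 0.05, while Kmt2a, Kmt2d and Kmt2b were higher with Ad-hHIF2 than with Ad-hHIF1, by 0.51, 0.40 and 0.28 (adjusted p = 0.00246, 0.00804 and 0.0299 by edgeR), Kmt2b turning sign on TPM with matched medians and losing its call in 8 of 20 alternatives. The calls of Kmt2a and Kmt2d were lost only on TPM, and 13.7% of all genes were higher in that comparison. Of 6 partners of Kdm2b in its Polycomb complex 0 were called against Ad-GFP by edgeR and by DESeq2, with 1 at an unadjusted p below 0.05. For the flavin-dependent demethylases Kdm1a and Kdm1b, which need no JmjC domain, all 3 of these counts were 0.

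For scale, 10 HIF target genes known from other cells were read in the same libraries. With Ad-hHIF2, 4 were higher and 3 lower than with Ad-GFP, against 15.9% and 13.6% of all genes. With Ad-hHIF1 0 were called by edgeR, as were 0% of all genes. DESeq2 called 3 of the 8 with an adjusted p, against 138 of 3211 over all genes. An unadjusted p below 0.05 was found for 3 in edgeR, against 8.59% of all genes. Egln3, a HIF prolyl hydroxylase, was at 53.2 to 58.6 CPM with Ad-GFP and 149 to 160 CPM with Ad-hHIF2 (log2 fold change 1.45, adjusted p = 5.09e-06 by edgeR), while Adm and Ankrd37 rose by 1.25 and 2.32 and Ndrg1 went from 404 to 418 CPM up to 854 to 935 CPM. The glucose transporter gene Slc2a1 was lower, at -0.78 (adjusted p = 0.000141 by edgeR). Each of these 4 rises was larger than 2-fold, above the upper bound of the interval of every Jumonji gene described, and each kept its call in all 17 alternatives tried.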

How the data were processed

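RNA was measured in 9 duodenal organoid cultures. The authors removed low-quality reads and estimated expected counts per gene with RSEM, and these expected counts are deposited without normalization; 85.7% of them are whole numbers. The authors' tables also hold TPM and, per the file headers, isoform-weighted lengths. The genome build, annotation, aligner and strandedness are not given in the sources used here. Among the TPM, 66.8% to 73% fall on genes shorter than 200 bases, so TPM served in alternatives only, and levels were compared as CPM per kilobase of effective length, which keeps the order of TPM within a library.

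Expected counts were rounded, filtered with filterByExpr, normalized by TMM and fitted in edgeR 4.0.16 under R 4.3.3 (quasi-likelihood F-test, all comparisons by contrast) with Benjamini-Hochberg adjustment over all genes. The study used EBSeq, which was not used here. The fits against Ad-GFP used 6 libraries each, and the fit of Ad-hHIF2 against Ad-hHIF1 all 9. The threshold for a call was an adjusted p of 0.05, with a 2-fold change in addition for the stricter count. The members and lists were chosen with earlier results of these data known. All 10 members are named, at most 5 called genes per list by smallest p, the 3 genes most like Jmjd6, and Epas1 and Hif1a. Kdm6a, Riox2 and the marker genes given with values were named in addition, after their values were seen. Alternatives were other filters, size factors, DESeq2 1.42.0, limma 3.58.1 on log2(TPM + 0.1) and log2(TPM + 1), other samples in the fit, the replicate block and each library left out. The fit with matched medians was added after seeing the data, and median TPM levels were set equal in it. p-values measure the spread between these samples, which the study calls biological replicates. Counts of the members in 36 of 90 cases were not whole, because RSEM divides ambiguous reads between genes. Library totals of 21722618 to 51119041 set the precision. Python 3.11.15 and matplotlib 3.10.9 drew the figures.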

Additional observations from a re-analysis of the deposited data

Results flagged for a closer look

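For 5 of the genes the response to HIF2 and the response to HIF1 differed by the direct test in a fit of all 9 libraries, in which 13.7% of all genes were higher and 12% lower. The log2 fold change in Ad-hHIF2 minus that in Ad-hHIF1 organoids was -0.70 for Jmjd6 (adjusted p = 0.000203 by edgeR). This call was lost in 2 of 20 alternatives, both on TPM. After TMM normalization all Ad-hHIF2 libraries lay below and all Ad-hHIF1 libraries above those of Ad-GFP for Jmjd6. Against Ad-GFP the rise with Ad-hHIF1 was not called (adjusted p = 0.504 by edgeR), and the Ad-hHIF2 value was 0.0066 on log2(TPM + 0.1). The same difference between the HIFs was 0.33 for Kdm3b (adjusted p = 0.00893 by edgeR) and -0.29 for Kdm4c (adjusted p = 0.0149 by edgeR). That of Kdm4c was lost in 7 of 20 alternatives, among them single libraries, library totals and TPM, and was as small as -0.018. For Kdm4a it was 0.26 and for Kdm3a -0.23 (adjusted p = 0.045 and 0.0465 by edgeR). Each of these held in 7 of 20 alternatives and was lost when single HIF libraries were left out and with library totals or TPM, and that of Kdm3a turned sign on TPM.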

How the results depend on the processing

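After TMM or median-ratio scaling the calls for Jmjd6 held in every fit on counts and without any 1 library. On the TPM and library-total scales the median of all genes was higher and some small changes had the other sign. With matched medians most signs returned, but that fit was added after seeing the data and centers every sample by construction. In it Kdm5b turned to -0.11 in Ad-hHIF2 against Ad-GFP. The cause of lost calls and turned signs was not tested.

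Without scaling beyond library totals, Ad-hHIF2 against Ad-GFP gave 1 member higher and 0 lower, with log2 fold changes of 0.058 for Kdm2b, 0.062 for Kdm3a and 0.15 for Kdm4c. Kdm4b in Ad-hHIF1 against Ad-GFP was at 0.057, and Ad-hHIF2 against Ad-hHIF1 gave 1 higher and 1 lower, with Kdm2b at 0.15 and Kdm5b at 0.16. On log2(TPM + 0.1), Ad-hHIF2 against Ad-GFP gave 0 lower, with 0.0066 for Jmjd6, 0.19 for Kdm2b, 0.25 for Kdm3a and 0.28 for Kdm4c. Ad-hHIF1 against Ad-GFP gave 0.11 for Kdm2b, 0.023 for Kdm3b, 0.051 for Kdm4a, 0.20 for Kdm4b and 0.14 for Kdm6b on that scale, and Ad-hHIF2 against Ad-hHIF1 gave 0 higher and 0 lower, with 0.081 for Kdm2b, 0.027 for Kdm3a and 0.17 for Kdm5b. On log2(TPM + 1), Ad-hHIF2 against Ad-GFP gave 0 lower, with 0.0090 for Jmjd6, 0.086 for Kdm2b, 0.18 for Kdm3a and 0.17 for Kdm4c. The same scale gave 0.044 for Kdm2b, 0.011 for Kdm3b, 0.034 for Kdm4a, 0.14 for Kdm4b and 0.079 for Kdm6b in Ad-hHIF1 against Ad-GFP, and 0 higher and 0 lower between the HIFs, with 0.042 for Kdm2b, 0.029 for Kdm3a and 0.13 for Kdm5b. With TPM medians matched, a setting chosen after seeing the data, Kdm5b was at -0.11 in Ad-hHIF2 and -0.016 in Ad-hHIF1 against Ad-GFP, Kdm4b at 0.055 in Ad-hHIF1, and between the HIFs 0 members were higher and 1 lower.

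At least 10 counts in every sample gave -0.0092 for Kdm5b in Ad-hHIF2 against Ad-GFP and 1 member higher between the HIFs, as did median-ratio factors. Without a filter 1 was lower between the HIFs, with Kdm2b at 0.0050 and Kdm5b at 0.0076. Leaving out 1 library gave 0 to 1 members higher in Ad-hHIF2 against Ad-GFP, the 1 being Kdm3b without Ad-GFP replicate 4. Between the HIFs it gave 1 to 3 members higher and 1 to 3 lower. Its log2 fold changes spanned 0 for Kdm5b in Ad-hHIF2 against Ad-GFP (-0.015 to 0.032), for Kdm2a (-0.0077 to 0.084), Kdm3a (-0.021 to 0.093), Kdm4b (-0.12 to 0.040) and Kdm5b (-0.028 to 0.091) in Ad-hHIF1 against Ad-GFP, and for Kdm2b (-0.12 to 0.060) and Kdm5b (-0.10 to 0.021) between the HIFs. Genes called in Ad-hHIF1 against Ad-GFP numbered 0 by the quasi-likelihood test, 384 without a filter, 7 with all 9 libraries and 138 by DESeq2. In Ad-hHIF2 against Ad-GFP 4416 genes were called, against 1109 on log2(TPM + 0.1) and 1010 on log2(TPM + 1), and between the HIFs 4008, against 460 and 367. Of the 4416, 2381 were higher, against 3491 of 4319 with library totals alone.

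Whether samples with the same replicate number share a mouse or a run was not tested. In Ad-hHIF2 against Ad-GFP, deviations of same-numbered samples correlated at 0.0703 to 0.134, above the -0.132 to 0.0657 of differently numbered ones. In Ad-hHIF1 against Ad-GFP the values were -0.0909 to 0.0969, against -0.202 to 0.18. Between the HIFs they were -0.194 to -0.067, against -0.12 to 0.206. With the replicate block Jmjd6 was at -0.40 in Ad-hHIF2 against Ad-GFP, Kdm3a lost its call between the HIFs (-0.23, adjusted p = 0.0653 by edgeR), and calls over all genes went from 4416 to 4631 and from 4008 to 3638. Kdm2b, with the lowest counts, had the widest interval of the members in Ad-hHIF2 against Ad-GFP.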
